A study of Mus musculus with 30 samples.

Results

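CDDO-Me, the methyl ester form of a synthetic triterpenoid, was compared with vehicle in livers of Keap1 C151S mice, in which a serine takes the place of the cysteine C151 of KEAP1. The 10 libraries carrying the C151S label were taken from a series of 30, with 5 from CDDO-Me-treated and 5 from vehicle-treated mice. The other 20 libraries came from wild-type and Nrf2-knockout mice, with 10 libraries per genotype and the same treatment groups of 5. Per the study's methods the mice were males of 7 to 10 weeks on an albino C57BL/6J background, the C151S mice were homozygous knock-ins made with CRISPR-Cas9, and the drug was given by mouth as 1 dose of 30 µmol/kg, 24 h before the liver was taken. Vehicle mice received the solvent mixture of DMSO, Cremophor-EL and PBS without drug. Each library was labelled as a separate sample, and the labels did not tie the replicate numbers to litters, cages or days.

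KEAP1 is the substrate adaptor of a ubiquitin ligase that keeps the transcription factor NRF2 short-lived in unstressed cells. Electrophiles react with sensor cysteines of KEAP1, which stabilizes NRF2 and raises genes of detoxification, glutathione and NADPH metabolism. C151 is a sensor for several electrophiles, and the comparison asked which transcripts CDDO-Me still changed in liver without it.

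Counts assigned to genes ran from 30876096 to 37768767 in the 10 C151S libraries. The tissue label was checked against 12 hepatocyte markers, whose summed level was 144366 to 166294 CPM (counts scaled by library size) in vehicle and 95794 to 184165 CPM in CDDO-Me livers. Gene counts cannot show the amino acid exchange itself, and Keap1 transcript was 38.3 to 51.2 CPM in vehicle and 42.5 to 65.3 CPM in CDDO-Me livers (log2 fold change 0.26, SE 0.12, adjusted p = 0.372). One library stood apart. CDDO-Me replicate 1 held 194397 CPM of 26 acute phase and STAT3 target genes, against 31365 to 48379 CPM in the other 4 treated livers and 24216 to 33696 CPM in vehicle livers, and values that moved by over 1.5 times without it are given both ways for the genes of the acute phase, metallothionein, inflammatory and stress lists. The libraries also fell into 2 sets by Arntl, a core clock gene, with log2 CPM of 2.53 to 4.75 in vehicle replicates 1 to 3 and CDDO-Me replicates 1 and 2, and of -1.18 to -0.25 in vehicle replicates 4 and 5 and CDDO-Me replicates 3 to 5. The labels give no hour or day of collection. In the order of the deposited samples, all C151S libraries of the high set come before those of the low set. The study fitted the date of isolation, and whether the sets follow it cannot be told from the labels. The main fit here held no term for date or set.

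CDDO-Me changed 13 of 14128 tested genes in C151S liver at an adjusted p under 0.05 with a log2 fold change of 0.5 or more in either direction. Upregulated DEGs numbered 2, or 0.0142% of the genes tested, and downregulated DEGs numbered 11, or 0.0779%. A short gene list with no call is near these shares, so 0 calls says little about its members. All 11 that fell act in mitosis or chromosome handling. The 2 that rose were Gm42031, a long intergenic noncoding RNA, and Plcd3, a phospholipase C. At an unadjusted p under 0.05, 1019 genes were higher (7.21%) and 923 lower (6.53%), and the median log2 fold change over all tested genes was -0.01. The same fit called 227 genes higher (1.66%) and 150 lower (1.1%) of 13697 in wild-type liver. In Nrf2-knockout liver it called 0 higher (0%) and 0 lower (0%) of 14474, and 1136 genes had an unadjusted p under 0.05. DESeq2 called 30 higher and 22 lower in Nrf2-knockout liver, beside 100 genes in C151S liver. The 13 calls depended on single libraries: without any 1 of CDDO-Me replicates 3, 4 and 5 or vehicle replicates 1, 2, 3 and 5, no gene passed, while all 13 kept their sign.

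**Figure D1:**
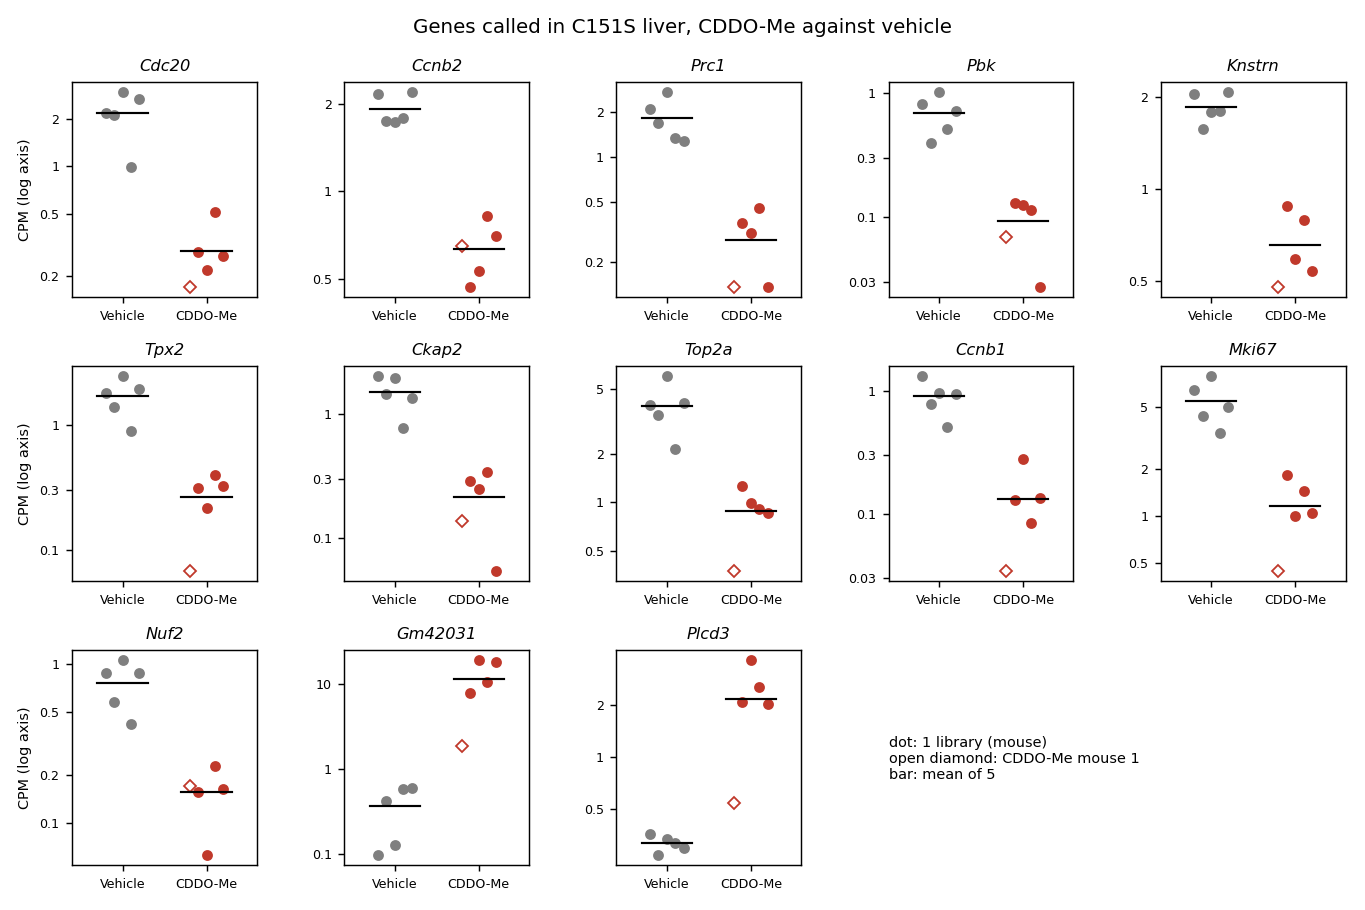
Expression in CPM (log axis) of the 13 genes called in C151S liver, 1 panel per gene, with a dot for each of 5 vehicle and 5 CDDO-Me libraries, an open diamond for CDDO-Me replicate 1 and a bar for the mean. The 11 genes that fell have every CDDO-Me library below every vehicle library, and Gm42031 and Plcd3 have every CDDO-Me library above, with replicate 1 the lowest treated library for both. The genes were chosen by low p in these same libraries, which favours such separation.

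The downregulated DEGs were Cdc20, Ccnb2, Prc1, Pbk, Knstrn, Tpx2, Ckap2, Top2a, Ccnb1, Mki67 and Nuf2, with log2 fold changes from -2.89 to -1.49. Genes needed in late cell cycle often share a promoter architecture of CCAAT boxes, which bind NF-Y, and a cell cycle genes homology region (CHR), through which DREAM and B-MYB complexes act. RefSeq promoters (GRCm38.p6, 250 bases before to 50 after the transcription start) were found for 9 of the 11, and the 150 bases before the start are shown 5′ to 3′ on the gene's own strand for 4 genes that hold both elements, with CCAAT matches and CHR matches, on either strand, in capitals. The CHR was searched as TTTGAA and also as TTCGAA. Cdc20 is at chr4:118437344-118437493, Ccnb2 at chr9:70421555-70421704, Top2a at chr11:99024190-99024339 and Mki67 at chr7:135716380-135716529, all on the minus strand.
Cdc20: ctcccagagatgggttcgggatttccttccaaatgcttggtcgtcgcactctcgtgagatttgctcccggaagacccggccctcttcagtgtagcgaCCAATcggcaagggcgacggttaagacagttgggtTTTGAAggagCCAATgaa
Ccnb2: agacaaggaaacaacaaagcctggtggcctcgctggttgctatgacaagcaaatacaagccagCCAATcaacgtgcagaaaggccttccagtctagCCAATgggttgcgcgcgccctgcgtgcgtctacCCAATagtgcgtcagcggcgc
Top2a: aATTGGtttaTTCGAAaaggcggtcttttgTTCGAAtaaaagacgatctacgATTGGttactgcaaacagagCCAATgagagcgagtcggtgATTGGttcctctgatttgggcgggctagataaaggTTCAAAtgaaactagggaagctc
Mki67: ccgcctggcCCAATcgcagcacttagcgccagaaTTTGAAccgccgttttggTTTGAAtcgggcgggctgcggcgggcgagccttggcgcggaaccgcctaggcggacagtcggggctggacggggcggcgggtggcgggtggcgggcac
Of the 9 promoters, 6 held at least 1 CHR and 1 CCAAT on either strand within the 300 bases. That was 66.7%, against 5.8% of 10569 promoters of genes tested in C151S and 7.66% of 27025 promoters in all. The CHR matches of Ccnb2 lay outside the stretch shown, at positions -167 and 4 from the start, Ccnb1 had CCAAT alone, and neither motif was found for Knstrn and Nuf2. Over the wider list of mitosis and spindle genes, 36 of 58 promoters (62.1%) held both, and over G1/S and DNA replication genes 8 of 47 (17%). These are matches of letters, not binding sites.

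**Figure D2:**
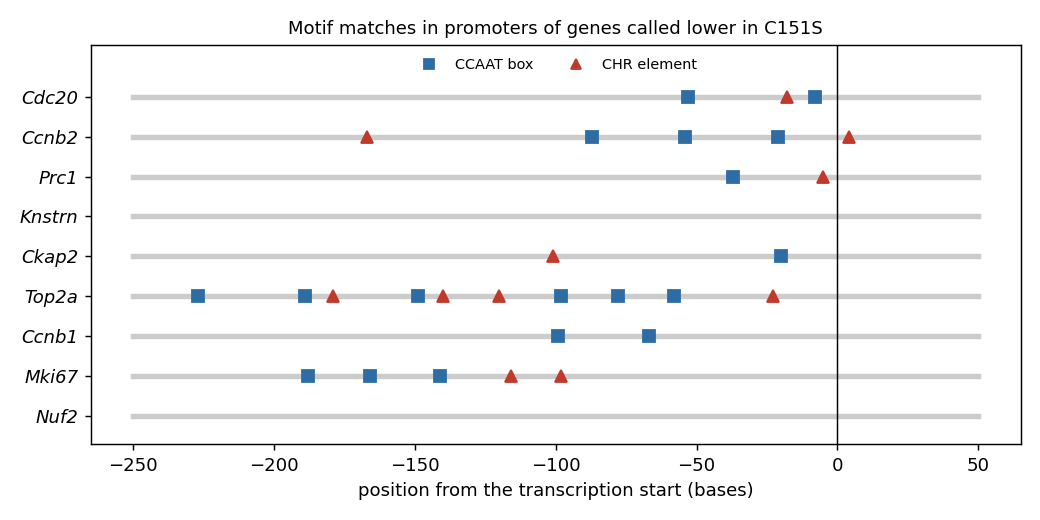
Positions of CCAAT boxes (squares) and CHR elements (triangles) in the promoters of 9 genes that fell in C151S liver, in bases from the transcription start, with a grey bar for the 300 bases searched. Cdc20, Ccnb2, Prc1, Ckap2, Top2a and Mki67 hold both elements, Ccnb1 holds CCAAT boxes only, and Knstrn and Nuf2 hold neither.

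Cdc20, the activator of the anaphase-promoting complex, was 2.17, 2.11, 2.95, 0.991 and 2.67 CPM in the 5 vehicle livers. With CDDO-Me it was 0.17, 0.285, 0.218, 0.51 and 0.27 CPM, which gave -2.89 (SE 0.35, adjusted p = 0.0323) as log2 fold change. The highest treated liver stayed below the lowest vehicle liver. Here and for the genes below, choice by low p in these same libraries favoured such separation, so it is a description only. Ccnb2, which encodes cyclin B2, was 2.17, 1.75, 1.74, 1.79 and 2.21 CPM in vehicle livers. It was 0.648, 0.466, 0.53, 0.821 and 0.701 CPM after CDDO-Me, with -1.61 (SE 0.20, adjusted p = 0.0323) as log2 fold change, and the groups did not overlap. Ccnb1, the other mitotic cyclin of this pair, was 1.33, 0.783, 0.959, 0.511 and 0.953 CPM in vehicle livers. In treated livers it was 0.0341, 0.129, 0.281, 0.0849 and 0.135 CPM (log2 fold change -2.74, SE 0.42, adjusted p = 0.04), where the lowest value rested on 1 read.

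Mki67, the proliferation antigen Ki-67 that coats mitotic chromosomes, was 6.46, 4.39, 7.96, 3.42 and 5.04 CPM in vehicle livers. After CDDO-Me it was 0.443, 1.84, 0.998, 1.44 and 1.05 CPM (log2 fold change -2.23, SE 0.34, adjusted p = 0.04), and CDDO-Me replicate 1 was lowest. Top2a, the topoisomerase that untangles sister chromatids, was 4.02, 3.46, 6.06, 2.14 and 4.14 CPM in vehicle livers. In treated livers it was 0.375, 1.27, 0.998, 0.906 and 0.863 CPM (log2 fold change -2.16, SE 0.33, adjusted p = 0.04), again with no overlap. Both genes are widely used as marks of dividing cells.

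The other 6 belong to the spindle and its attachment to chromosomes. Prc1, which bundles the midzone microtubules, was 2.08, 1.69, 2.7, 1.34 and 1.28 CPM in vehicle livers and 0.136, 0.362, 0.312, 0.453 and 0.135 CPM in treated livers (log2 fold change -2.68, SE 0.36, adjusted p = 0.038). Tpx2, the activator of Aurora A on the spindle, went from 0.895 to 2.44 CPM to 0.0682 to 0.396 CPM (log2 fold change -2.65, SE 0.38, adjusted p = 0.04). Each of them separated the groups completely. Knstrn, a kinetochore and spindle protein, was 1.57 to 2.07 CPM against 0.477 to 0.88 CPM (log2 fold change -1.49, SE 0.21, adjusted p = 0.0399). Nuf2, a subunit of the NDC80 kinetochore complex, was 0.416 to 1.06 CPM against 0.0624 to 0.226 CPM (log2 fold change -2.27, SE 0.35, adjusted p = 0.0467). Ckap2, a microtubule stabilizer of the spindle, and Pbk, a mitotic kinase, had log2 fold changes of -2.80 (SE 0.41) and -2.85 (SE 0.40). All of these transcripts were scarce: counts per library for the 11 genes ran from 13 to 307 in vehicle and from 1 to 71 in treated livers. Only 4 of the 13 called genes, Ccnb2 among them, held at least 10 counts in every C151S library. The rest were scarcest in 1 group, and the filter on low counts favoured a difference in that direction.

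Genes just outside the threshold were mostly on the mitosis list. The 10 with the next lowest p and a log2 fold change of 0.5 or more in either direction were Neurl1b, Kif2c, Plk1, Shcbp1, Hmmr, Nusap1, Cenpf, Mad2l1, Ube2c and Cenpe, all below 0, with adjusted p from 0.0512 to 0.0836. Neurl1b, a ubiquitin ligase gene, was the only one of them outside the list. Polo-like kinase Plk1 was 0.447 to 1.27 CPM in vehicle and 0.102 to 0.285 CPM in treated livers (log2 fold change -2.08). Hmmr, which encodes a spindle-associated hyaluronan receptor, was 1.36, 1.14, 1.55, 0.671 and 0.735 CPM in vehicle livers. It was 0, 0.207, 0.125, 0.0283 and 0 CPM in treated livers, with no read in 2 of them. Mad2l1, a spindle checkpoint gene, had the smallest difference of these 10 (log2 fold change -0.85, 3.37 to 4.48 against 1.88 to 2.72 CPM).

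In a list of 70 mitosis and spindle genes, 59 passed the filter on low counts, 11 were called lower and 0 higher. At an unadjusted p under 0.05, 49 were lower and 1 higher, against 6.53% and 7.21% of all tested genes, and the median log2 fold change was -1.41 (range -3.82 to 0.32). Of the 59, 27 reached the count minimum in all 5 vehicle livers but not in all 5 treated livers. A gene that passed only through vehicle livers had to be lower after treatment. The median and the counts of lower members are therefore descriptions, also beside the shares over all genes. The 11 members without a test had at most 36 reads in any C151S library. Summed over all 70 members with no filter, the level was 197.8, 173.1, 215.8, 154 and 199.7 CPM in vehicle livers and 127.2, 127.8, 133.3, 136.5 and 129.5 CPM in treated livers, with no overlap. Of 57 tested genes of G1/S and DNA replication, none was called, 15 were lower and 1 higher at an unadjusted p under 0.05, and -0.21 was the median. Among them Gins2, a subunit of the replicative helicase, had -1.25 (adjusted p = 0.238), Rfc4, a clamp loader subunit, -0.58 and Dtl, a ubiquitin ligase adaptor, -1.21 as log2 fold change. In bulk liver, fewer dividing cells and less of these RNAs per cell cannot be told apart.

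No cell cycle inhibitor was called, where 0.0142% of all tested genes were called higher and 0.0779% lower. Of 22 tested inhibitors and p53 targets 1 was higher and 1 lower at an unadjusted p under 0.05, against 7.21% and 6.53% of all. The median log2 fold change was -0.09. Cdkn1a, which encodes p21, was 2.99, 2.62, 6.48, 1.25 and 3.54 CPM in vehicle livers. With CDDO-Me it was 24.5, 12.5, 0.749, 3.09 and 8.84 CPM (log2 fold change 1.54, SE 0.71, adjusted p = 0.366), with overlapping groups. Without CDDO-Me replicate 1 its log2 fold change was 0.89, and within the high and low Arntl sets the difference in mean log2 CPM was 2.23 and 0.38. Gadd45a, a stress-inducible growth arrest gene, was 1.47 to 4.46 CPM in vehicle livers and 2.73, 2.48, 11.3, 10.3 and 24.7 CPM in treated livers (log2 fold change 1.67, SE 0.59, adjusted p = 0.35), high in CDDO-Me replicates 3 to 5 and within the vehicle range in replicates 1 and 2. The latter 2 and the former 3 are also the 2 Arntl sets, within which Gadd45a differed from vehicle by -0.30 and 2.48 in mean log2 CPM. The part of the sets in this was not tested.

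The fold changes of the mitotic genes kept their sign without CDDO-Me replicate 1 and within both Arntl sets. In the fit of the other 9 libraries 7 of the 11 were called, namely Cdc20 (-2.76), Ccnb2 (-1.62), Prc1 (-2.53), Knstrn (-1.41), Tpx2 (-2.43), Top2a (-1.98) and Mki67 (-2.04), each with an adjusted p between 0.0424 and 0.046. Cdc20 differed by -3.12 in mean log2 CPM within the high Arntl libraries and by -2.18 within the low ones, and Mki67 by -2.66 and -1.80. With the Arntl set as a covariate, 3 of the 13 calls were left, Cdc20, Ccnb2 and Gm42031.

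Of the 11 genes, 4 were also called lower in the fit of the 10 wild-type libraries. Summed over the 11 downregulated DEGs, the level fell from 22.7 ± 6.09 CPM to 4.75 ± 1.41 CPM in C151S liver (SD, n = 5 per group), a comparison the choice of genes used. In wild-type liver, which the choice did not use, the sums were 12.5 ± 5.01 CPM with vehicle and 3.14 ± 0.925 CPM with CDDO-Me. In Nrf2-knockout liver they were 25.0 ± 18.3 CPM and 11.2 ± 7.99 CPM, with wide spread in both groups (7.23 to 51.6 CPM with vehicle). Of the 11, 6 passed the count filter in wild-type liver, and 4 were called lower there: Cdc20 (-2.59, SE 0.44, adjusted p = 0.00552), Prc1 (-2.49), Top2a (-1.99) and Mki67 (-1.87), against 1.1% of all tested genes. In the fit of all 30 libraries these 4 missed the threshold for the wild-type contrast, with adjusted p of 0.0528, 0.0784, 0.0665 and 0.0732. Of the mitosis list, 13 of 39 members tested in wild-type liver were called lower. None of the 11 was called in Nrf2-knockout liver, as for all 14474 genes tested there (0%). The log2 fold change there was -1.35 for Cdc20 and -2.86 for Ccnb1. In a fit of all 30 libraries, the wild-type response minus the C151S response was not significant for any of the 11 (lowest adjusted p = 0.763), nor was the C151S minus the Nrf2-knockout response (lowest adjusted p = 0.943). Across the 69 list members in that fit the medians were -1.52 in C151S, -1.27 in wild-type and -0.97 in Nrf2-knockout liver, and no member differed in response between wild-type and C151S.

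**Figure D3:**
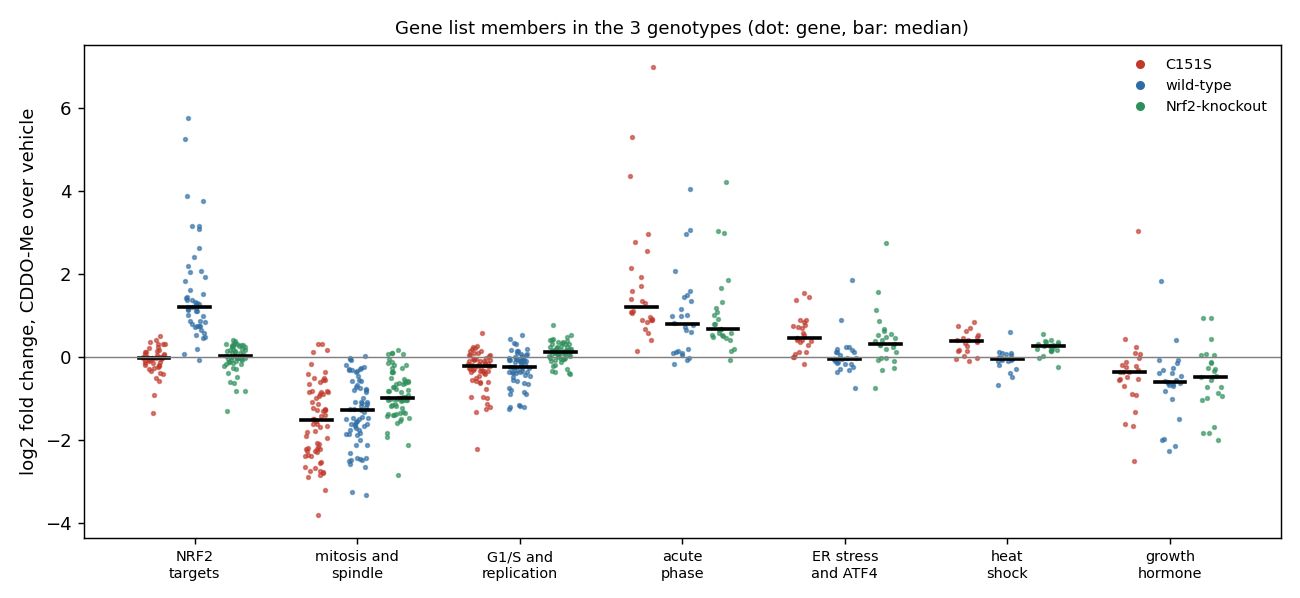
Log2 fold change of CDDO-Me over vehicle for the members of 7 gene lists in C151S, wild-type and Nrf2-knockout liver, from 1 fit of all 30 libraries, with a dot for each gene and a bar for the median. NRF2 targets have medians of -0.01, 1.21 and 0.02 in the 3 genotypes, while mitosis and spindle genes have -1.52, -1.27 and -0.97 and acute phase genes 1.21, 0.80 and 0.67.

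Gm42031 had the largest fold change of the 13 DEGs. It lies on chromosome 8 (chr8:85125872-85132289, mm10, minus strand) as a long intergenic noncoding RNA with no assigned function in the annotation. Its expression was 0.0973, 0.421, 0.13, 0.575 and 0.599 CPM in vehicle livers. After CDDO-Me it was 1.84, 7.79, 19, 10.6 and 17.8 CPM, so that the group mean went from 0.365 ± 0.239 to 11.4 ± 7.14 CPM (SD, n = 5 per group) and the log2 fold change was 4.95 (SE 0.66, adjusted p = 0.038). All treated livers lay above all vehicle livers, and CDDO-Me replicate 1 was the lowest of the 5 treated. Plcd3, which encodes phospholipase C delta 3 and cleaves phosphatidylinositol bisphosphate, lies at chr11:103070304-103101658 on the minus strand. Its level was 0.357, 0.271, 0.337, 0.32 and 0.3 CPM in vehicle and 0.546, 2.07, 3.65, 2.55 and 2.02 CPM in treated livers, and the log2 fold change was 2.75 (SE 0.42, adjusted p = 0.04). The treated range did not overlap the vehicle range, although CDDO-Me replicate 1 was close to it. Both genes were scarce in vehicle livers, where the lowest value of Gm42031 rested on 3 counts, so its fold change is imprecise. Both reached the count minimum in all 5 treated but not all 5 vehicle livers, so the filter favoured higher values.

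The 150 bases before the RefSeq starts of the 2 upregulated DEGs are shown in the same form, since these were the only transcripts called higher. They lie at chr8:85131815-85131964 and chr11:103101659-103101808 (GRCm38.p6, minus strand), and the RefSeq start of Gm42031 is 475 bases inside the start of the GENCODE M21 gene model, so that its stretch lies within that model.
Gm42031: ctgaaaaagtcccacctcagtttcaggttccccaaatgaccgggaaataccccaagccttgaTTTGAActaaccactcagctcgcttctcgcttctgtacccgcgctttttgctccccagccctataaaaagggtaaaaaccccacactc
Plcd3: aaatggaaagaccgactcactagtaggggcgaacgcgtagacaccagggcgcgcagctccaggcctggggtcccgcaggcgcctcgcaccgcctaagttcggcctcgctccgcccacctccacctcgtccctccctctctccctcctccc
Neither promoter held the core of the antioxidant response element that NRF2 binds (TGACNNNGC, either strand, 300 bases searched), which 14.6% of tested promoters held. Among 45 NRF2 target promoters 11 (24.4%) held it. The window before Gm42031 held 1 CHR match and no CCAAT, and Plcd3 had 1 CCAAT upstream of the stretch shown.

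A pair of further transcripts had the same set of libraries high. They were looked at because the study marked them in its own C151S plot of these libraries, so a difference was known beforehand. Zfp791, a zinc finger gene that starts 2777 bases downstream of Gm42031 on the same strand (chr8:85108553-85123095), was 2.01, 1.53, 1.74, 1.6 and 2.86 CPM in vehicle livers. After CDDO-Me the level was 2.15, 10.2, 11.7, 7.81 and 6.63 CPM (log2 fold change 1.97, SE 0.38, adjusted p = 0.13), that is, in the vehicle range in replicate 1 and above it in the other 4. Gm4316, a noncoding RNA elsewhere on chromosome 8 (chr8:123165255-123178765), was 0.292, 0.211, 0.13, 0.511 and 0.49 CPM in vehicle livers and 0.409, 2.54, 1.31, 1.75 and 2.05 CPM in treated livers (log2 fold change 2.30, SE 0.48, adjusted p = 0.196). Here too replicate 1 lay in the vehicle range. Without CDDO-Me replicate 1, all 4 transcripts were called higher: Gm42031 at 5.21 (adjusted p = 0.00265), Plcd3 at 2.99 (adjusted p = 0.00188), Zfp791 at 2.21 (adjusted p = 0.0076) and Gm4316 at 2.54 (adjusted p = 0.0429). Replicate 1 was the lowest treated library for all 4 and was left out after the data were seen, so this omission favoured higher calls. Leaving out any other single library did not call Plcd3, Zfp791 or Gm4316. Reads of Zfp791 and Gm42031 come from neighbouring annotations on 1 strand, and transcription running from one into the other cannot be seen in gene counts.

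No other neighbouring gene was called. Besides Zfp791, 7 tested genes lie within 100 kb of Gm42031, with log2 fold changes between -0.08 (Tnpo2, a nuclear import receptor) and 0.37 (Fbxw9, an F-box protein), and none was called. Around Plcd3 6 tested genes had between -0.14 (Fmnl1, a formin) and 0.50 (Hexim1, an inhibitor of P-TEFb), and none was called. Acbd4, an acyl-CoA binding protein gene that starts 24 bases from Plcd3 on the opposite strand, had 0.36 (SE 0.13, adjusted p = 0.35). Of the 11 tested members of a phospholipase C delta and phosphoinositide list, Plcd3 was the only one called, and the list median was 0.00. Itpr2, an inositol trisphosphate receptor, and Inpp1, an inositol phosphatase, had 0.20 and -0.21.

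**Figure D4:**
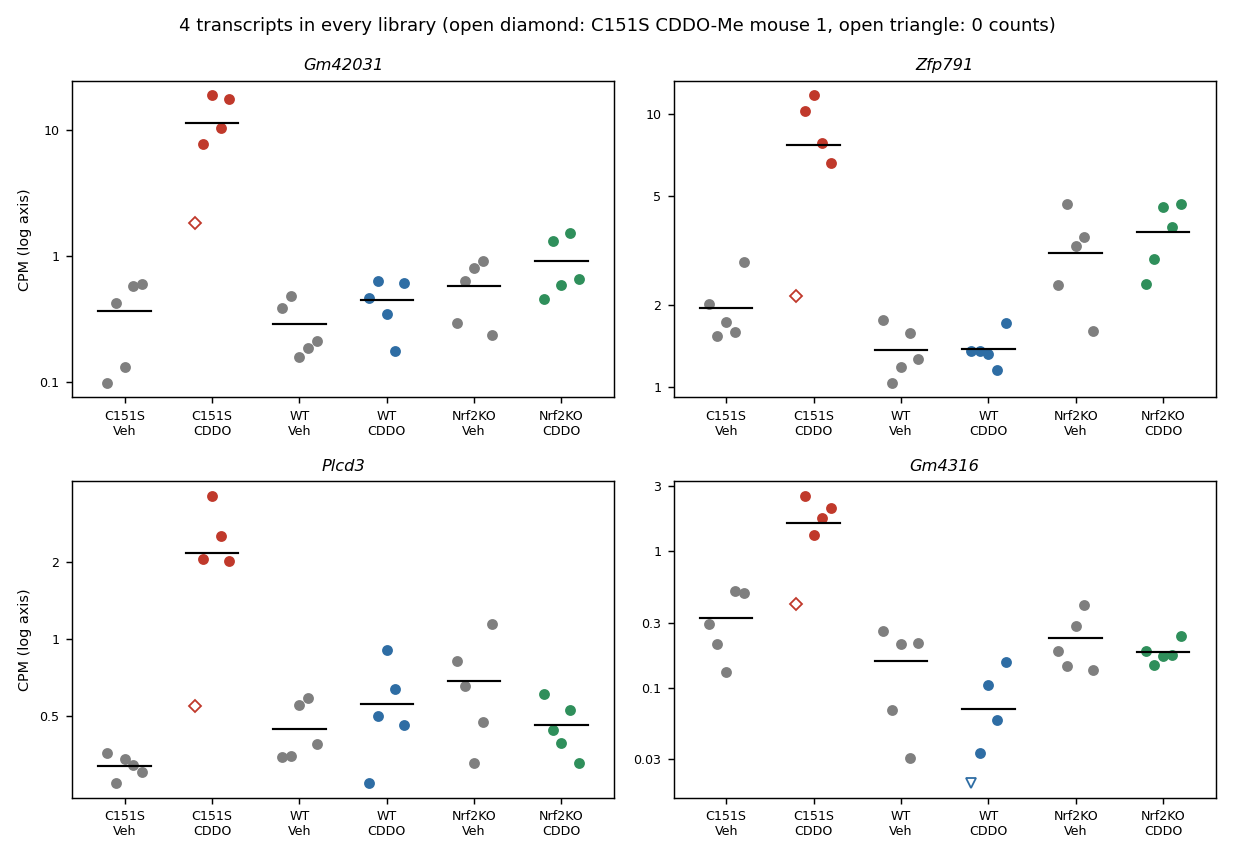
Expression in CPM (log axis) of Gm42031, Zfp791, Plcd3 and Gm4316 in all 30 libraries by genotype and treatment, with a dot per library, an open diamond for C151S CDDO-Me replicate 1, an open triangle for a library with 0 counts and a bar for the mean. CDDO-Me replicates 2 to 5 of C151S stand above all other libraries in each panel, at 7.79 to 19.0 CPM for Gm42031.

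Gm42031 and Plcd3 responded differently in the other genotypes. Gm42031 was 0.158 to 0.484 CPM with vehicle and 0.174 to 0.63 CPM with CDDO-Me in wild-type liver, and 0.235 to 0.908 and 0.451 to 1.54 CPM in Nrf2-knockout liver. The wild-type minus C151S response was -4.28 (SE 0.84, adjusted p = 0.00911) on the log2 scale, and the C151S minus Nrf2-knockout response was 4.32 (SE 0.75, adjusted p = 0.0252). For Plcd3 the 2 differences were -2.45 (SE 0.53, adjusted p = 0.0249) and 3.33 (SE 0.52, adjusted p = 0.0105). Gm42031 and Plcd3 were the 2 genes, 0.0133% of 15010, whose response was significantly higher in C151S than in Nrf2-knockout liver, and for none (0%) was it lower. Zfp791 and Gm4316 also differed from wild-type, by -1.95 (SE 0.45, adjusted p = 0.0373) and -3.35 (SE 0.79, adjusted p = 0.0446). Their difference from Nrf2-knockout was not significant (adjusted p = 0.798 and 0.943).

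No NRF2 target gene was called in C151S liver, where 0.0142% of all tested genes were called higher and 0.0779% lower. Of 50 listed targets 47 were tested, with 1 higher and 1 lower at an unadjusted p under 0.05, against 7.21% and 6.53% of all. Of the 47, 18 were above and 29 below 0, against 49.1% of all above 0. The median log2 fold change was -0.02. Without CDDO-Me replicate 1 the median was 0.01, with 2 higher and 0 lower. Nqo1, the quinone reductase used as the standard readout of NRF2, was 6.33, 7.37, 6.63, 6.55 and 6.64 CPM in vehicle livers. In treated livers it was 5.59, 7.58, 6.39, 8.12 and 7.66 CPM (log2 fold change 0.07, SE 0.12, adjusted p = 0.81), with the vehicle range inside the treated range. Srxn1, which encodes sulfiredoxin, was 35.9 to 43.2 and 31.9 to 40.5 CPM (-0.10, SE 0.09, adjusted p = 0.615). Cbr3, a carbonyl reductase, was 0.288 to 0.518 and 0.406 to 0.674 CPM (0.40, SE 0.26, adjusted p = 0.48). The glutathione transferase Gstm1 was 1091 to 1538 and 716 to 1893 CPM (-0.02, SE 0.24, adjusted p = 0.98), lowest in CDDO-Me replicate 1. Gpx2, a glutathione peroxidase, had at most 2 reads in any C151S library and was not tested.

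Members with the lowest p were Fth1, the ferritin heavy chain, at 0.35 (SE 0.13, adjusted p = 0.351), Gsta1, a glutathione transferase, at -1.36 (SE 0.62, adjusted p = 0.363) and Htatip2, an oxidoreductase, at 0.23 (SE 0.10, adjusted p = 0.366). The target list was chosen with earlier results of these data known. In wild-type liver 43 of the 49 tested NRF2 targets were called higher, against 1.66% of all tested genes. The wild-type and C151S responses were compared in 1 test for 49, and 26 were higher in wild-type than in C151S, against 0.386% of all genes. The difference was 3.09 (SE 0.31, adjusted p = 4.65e-07) for Nqo1, 2.29 (SE 0.19, adjusted p = 1.82e-08) for Srxn1, 4.84 (SE 0.41, adjusted p = 1.82e-08) for Cbr3 and 2.43 (SE 0.29, adjusted p = 7.85e-06) for Gstm1. No target differed in response between C151S and Nrf2-knockout liver, against 0.0133% of all genes higher and 0% lower in C151S. The standard error of the C151S fold change was 0.12 for Nqo1 and 0.09 for Srxn1, beside fold changes of 3.16 and 2.19 in wild-type liver. Regulators of the pathway were likewise not called: Nfe2l2, which encodes NRF2, had -0.23 (SE 0.16, adjusted p = 0.496) and -0.11 without CDDO-Me replicate 1, Nfe2l1, its relative NRF1, 0.37 (0.20 without CDDO-Me replicate 1) and Mafk, a small MAF partner, -0.22.

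Of the 227 genes called higher in wild-type liver, 220 were tested in C151S liver and 0 were called there, against 0.0142% of all tested genes, with 35 higher at an unadjusted p under 0.05, against 7.21%. In wild-type liver, which chose them, the median of their log2 fold changes was 0.85, and in C151S liver it was 0.10. For 53 of the 227 the wild-type response was significantly larger, against 0.386% of all genes. The wild-type libraries that chose these genes also entered that test, so a larger wild-type response was favoured in advance. Of 150 genes called lower in wild-type liver, 147 were tested in C151S liver, 4 were called lower, against 0.0779% of all tested genes, and 59 were lower at an unadjusted p under 0.05, against 6.53%, with a median of -0.55 against -0.90 in wild-type liver. A larger fall in wild-type than in C151S was significant for 6 of the 150, with the same limit. Over all genes the wild-type response was significantly lower for 0.0933%.

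Acute phase genes lay above 0 as a list, with no gene past the threshold. All 26 listed acute phase and STAT3 target genes had a log2 fold change above 0, against 49.1% of all tested genes, and 20 were higher at an unadjusted p of 0.05, against 7.21% of all, with 1.21 as the list median. The median was lower without CDDO-Me replicate 1. In the other 9 libraries the median was 0.59 and 13 were higher at an unadjusted p under 0.05, against 4.31% of all genes in that fit. Saa1, a serum amyloid A protein, was 41.9, 86.8, 82.7, 241 and 101 CPM in vehicle livers. In treated livers it was 19584, 449.6, 328, 133 and 1468 CPM (log2 fold change 5.30, SE 1.37, adjusted p = 0.333, and 2.41 without replicate 1), and the groups overlapped. Lcn2, the siderophore-binding lipocalin, was 2.86, 4.36, 5.96, 9.33 and 6.56 CPM in vehicle livers. It was 2605, 36.3, 33.9, 12.3 and 78.1 CPM in treated livers, all above the vehicle range (6.56, SE 1.56, adjusted p = 0.285, and 2.77 with adjusted p = 0.0852 without replicate 1). Fgl1, a hepatocyte-secreted fibrinogen-like protein, was 249.8 to 448 CPM in vehicle and 3282, 841, 787, 389 and 919.6 CPM in treated livers (1.93, SE 0.49, adjusted p = 0.332, and 1.17 without replicate 1). In the fit of all 30 libraries the list median was 1.21 in C151S, 0.80 in wild-type and 0.67 in Nrf2-knockout liver, and no member differed significantly between the responses.

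Metallothioneins, small metal-binding proteins induced by zinc, glucocorticoids and inflammation, followed the same libraries. Mt2 was 34.6, 37.4, 42.6, 28 and 67 CPM in vehicle livers. With CDDO-Me it was 1952, 229, 112, 139 and 227 CPM, with no overlap, and the log2 fold change was 3.65 (SE 0.80, adjusted p = 0.223). Mt1 was 94.7, 115, 100.4, 70.1 and 145 CPM in vehicle livers and 2197, 312, 219, 271 and 374 CPM in treated livers (2.67, SE 0.63, adjusted p = 0.282). Both missed the threshold with all 10 libraries and passed it without CDDO-Me replicate 1, at 2.07 (adjusted p = 0.0424) and 1.47 (adjusted p = 0.0429). In wild-type liver both were called, at 3.59 (SE 0.45, adjusted p = 0.000619) and 3.03 (SE 0.40, adjusted p = 0.000935). The wild-type minus C151S response was -0.07 (SE 1.08, adjusted p = 0.993) for Mt2, which leaves room for a difference in either direction. Slc39a14, a zinc importer of the acute phase, was 189 to 272 CPM and 508, 269, 314, 268 and 296 CPM (0.60, SE 0.19, adjusted p = 0.347, and 0.39 without replicate 1, its highest library).

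**Figure D5:**
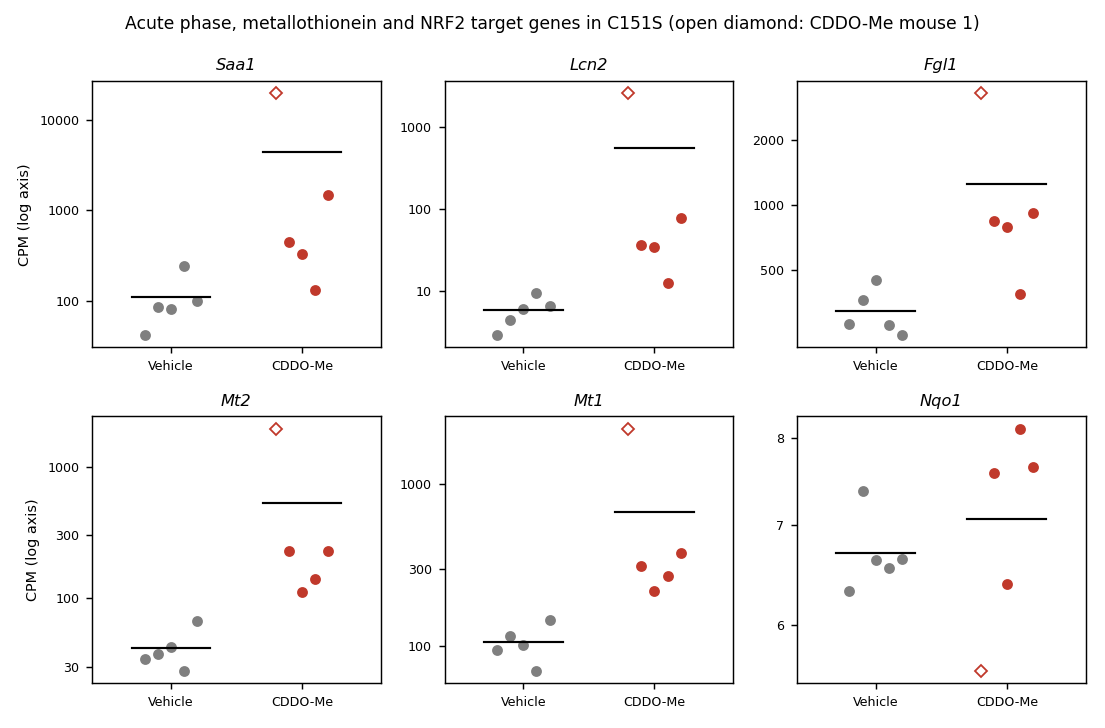
Expression in CPM (log axis) of 3 acute phase genes, 2 metallothioneins and the NRF2 target Nqo1 in the 5 vehicle and 5 CDDO-Me livers of C151S mice, with a dot per library, an open diamond for CDDO-Me replicate 1 and a bar for the mean. Replicate 1 is the highest library for Saa1, Lcn2, Fgl1, Mt2 and Mt1 and the lowest for Nqo1, at 5.59 CPM.

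No gene of the NF-kB, interferon and immediate early lists was called. Of 22 tested NF-kB targets and chemokines 5 were higher and 1 lower at an unadjusted p under 0.05, against 7.21% and 6.53% of all tested genes, with a median of 0.03, and of 30 interferon response genes 3 were higher and 4 lower. Cxcl1, a neutrophil-attracting chemokine, was 6.26 to 20.2 CPM in vehicle and 108, 39.9, 25, 13.7 and 17.6 CPM in treated livers (1.67, SE 0.53, adjusted p = 0.347, and 0.90 without replicate 1, its highest library). Nfkbiz, an inducible NF-kB cofactor, had 0.63 (SE 0.17, adjusted p = 0.333). Ifit3 and Ifit1, antiviral interferon-induced genes, had -0.61 (SE 0.14, adjusted p = 0.251) and -0.45 (SE 0.14, adjusted p = 0.347), and Igtp, an interferon-gamma induced GTPase, 0.39. Immediate early genes had a median of -0.48, with 3 of 22 lower at an unadjusted p under 0.05: Egr2 (-2.42), Myc (-0.84) and Ccn1 (-1.31). Without CDDO-Me replicate 1 none of the 22 was lower at that level. The list median was -0.91 within the high and 0.67 within the low Arntl set, and Egr2 (-3.10 and 0.72) and Ccn1 (-1.93 and 0.38) changed sign between the sets, so no direction is given for this list.

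Stress chaperones were mostly above 0 in C151S liver without any call. Of 24 tested endoplasmic reticulum stress and ATF4 genes 21 were above 0 and 13 were higher at an unadjusted p under 0.05, against 7.21% of all tested genes, with a median of 0.50. Without CDDO-Me replicate 1 the median was 0.35 and 10 were higher at that level, against 4.31% of all genes. Sdf2l1, an endoplasmic reticulum chaperone cofactor, was 18.7, 9.9, 14.7, 13 and 13.9 CPM in vehicle livers. CDDO-Me livers had 77, 23.7, 18.8, 17.1 and 46 CPM (1.37, SE 0.39, adjusted p = 0.333, and 0.90 without replicate 1), with overlap between the groups. Psat1, a serine synthesis enzyme under ATF4, was 0.357 to 0.98 CPM and 3.99, 1.68, 0.998, 1.33 and 1.67 CPM (1.45, SE 0.40, adjusted p = 0.333). Sel1l, part of the degradation complex of the endoplasmic reticulum, had 0.36. Of 20 heat shock chaperones 17 were above 0, 4 of them at an unadjusted p under 0.05, with a median of 0.38 and with Hspb8, a small heat shock protein, at 0.70 (SE 0.17, adjusted p = 0.285), Stip1, a co-chaperone, at 0.41 and Bag3, a cochaperone of selective autophagy, at 0.73. The heat shock median was 0.40 within the high and 0.13 within the low Arntl set and 0.23 to 0.53 on leaving out 1 library, and the summed level of the list followed the sets in vehicle livers, at 1956 to 2196 CPM in replicates 1 to 3 and 2771 to 2921 CPM in replicates 4 and 5. The part of the sets in the heat shock values was not tested. In the fit of all 30 libraries the endoplasmic reticulum stress median was 0.46 in C151S, -0.04 in wild-type and 0.32 in Nrf2-knockout liver, and 1 of 25 members differed significantly between the wild-type and C151S responses.

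Growth hormone dependent genes were mostly below 0. Of 25 genes dependent on growth hormone and STAT5, 20 were below 0, 7 were lower and 1 higher at an unadjusted p under 0.05, against 6.53% and 7.21% of all tested genes, none was called and the list had a median of -0.37. Ugt2b38, a glucuronosyltransferase, was 2.37, 1.23, 4.56, 4.03 and 2.78 CPM in vehicle livers. After CDDO-Me it was 0.273, 0.828, 0.0312, 0.821 and 0.647 CPM (-2.50, SE 0.55, adjusted p = 0.223), with no overlap. Selenbp2, a selenium-binding protein, was 117 to 452 CPM against 57.3 to 162 CPM (-1.61, SE 0.37, adjusted p = 0.272). Mup20, a major urinary protein gene, was 1167 to 1713 CPM against 973 to 1065 CPM (-0.56, SE 0.12, adjusted p = 0.23), and reads of this family can be shared between close copies. In wild-type liver Ugt2b38 and Selenbp2 were called lower (-2.15 and -2.27). No member differed in response between the genotypes.

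In other metabolic, clock and matrix lists no gene was called. The medians were 0.14 for cholesterol synthesis, -0.07 for lipogenesis, 0.13 for PPAR-alpha targets and fatty acid oxidation, 0.02 for CAR, PXR and AhR responsive genes, 0.00 for bile acid genes, -0.05 for gluconeogenesis and glycogen, and 0.26 for glucocorticoid responsive genes. Clock genes had 0.22, and 0.00 and 0.01 within the high and low Arntl sets, with -0.05 to 0.42 on leaving out 1 library. Matrix genes had -0.06, and -0.29 and 0.29 within the sets. Within the high and low sets the medians were 0.14 and -0.28 for cholesterol synthesis and -0.51 and 0.06 for lipogenesis. They were -0.31 and 0.09 for CAR, PXR and AhR responsive genes and -0.25 and 0.11 for gluconeogenesis and glycogen. Medians of the PPAR-alpha, bile acid and glucocorticoid lists had the same sign in both sets. The cholesterol median was -0.22 without CDDO-Me replicate 1. Scd1, the stearoyl-CoA desaturase of lipogenesis, was 10861, 8939.9, 15044, 7116 and 11702 CPM in vehicle livers. The treated livers had 949, 4464, 6628, 6736 and 2561 CPM (-1.34, SE 0.45, adjusted p = 0.35), with all treated livers below all vehicle livers. Elovl5, a fatty acid elongase, was 239.6 to 718 CPM against 152 to 400.3 CPM (-1.02, SE 0.32, adjusted p = 0.347). Cyp3a11, a main drug-metabolizing P450, was 6700.2 to 7547 CPM and 1488, 6073, 5593, 5430.4 and 4064 CPM (-0.64, SE 0.30, adjusted p = 0.372, and -0.42 without replicate 1, its lowest library), and Cyp3a13 of the same family had 0.85 (SE 0.21, adjusted p = 0.308). Ppp1r3b, a glycogen-targeting phosphatase subunit, had 0.63, Pcx, pyruvate carboxylase, 0.43 and Irs2, an insulin receptor substrate, -1.28. Per1, a clock gene, had 0.79 (SE 0.36, adjusted p = 0.362).

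Markers of other liver cells were checked beside these results. None was called. B cell markers had a median log2 fold change of -0.72 over 7 genes, and a summed level of 15.8 to 30.7 CPM in vehicle and 14.1 to 22.2 CPM in treated livers. At an unadjusted p under 0.05, 4 were lower, against 6.53% of all tested genes. Of the 7, 3 reached the count minimum in all vehicle livers but not in all treated livers, so the filter favoured lower values. The B cell median was -1.13 within the high and -0.03 within the low Arntl set. Erythroid markers were below 0 for 5 of 5 tested, at 190.5 to 408 CPM against 103 to 278.5 CPM summed. Neutrophil markers summed to 1.44 to 6.38 CPM in vehicle and 2.43 to 20.9 CPM in treated livers, with the highest value in CDDO-Me replicate 1 and 5 of 8 members under the filter. Kupffer cell, endothelial and stellate markers had medians of -0.12, -0.09 and -0.23, T and NK cell markers -0.27, cholangiocyte markers 0.13 and hepatocyte markers -0.19. Within the high and low Arntl sets the medians were -0.28 and 0.25 for Kupffer cell, -0.31 and 0.15 for endothelial and -0.48 and 0.13 for stellate markers. They were -0.53 and -0.001 for T and NK cell, 0.30 and 0.01 for cholangiocyte and -0.46 and 0.01 for hepatocyte markers. Pancreatic acinar and intestinal markers were at 48.4 to 74 CPM and 44.5 to 63.7 CPM. The part of these cell types in the mitotic and acute phase differences was not tested.

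Over all genes, the response was significantly higher in wild-type than in C151S liver for 58 of 15010 (0.386%) and lower for 14 (0.0933%). The 5 highest-ranked in the first direction were Srxn1, Cbr3, Nqo1, Gstm4 and Gm34934. Gstm4, another glutathione transferase, had 1.77 (SE 0.18, adjusted p = 4.65e-07), with -0.15 in C151S and 1.62 in wild-type liver. Gm34934, an unnamed transcript, had -0.50 and 1.21. In the other direction the lowest p were those of Mpp4, Gm43860, Gm42031, Tagln3 and Prss53. Mpp4, a scaffold protein of photoreceptors, was 1.46 to 2.37 CPM with vehicle and 1.66 to 3.93 CPM with CDDO-Me in C151S liver (0.77) and fell in wild-type liver (-0.94, SE 0.18, adjusted p = 0.0117). Tagln3, a transgelin family gene, had 1.08 and -1.43, Gm43860 0.87 and -1.07, and Prss53, a serine protease, 0.55 and -1.01. For these 4 the call in wild-type was of a fall, and the C151S values did not pass the test.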

How the data were processed

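RNA from 30 mouse livers was sequenced as stranded, paired-end poly(A) libraries, 1 per mouse. The authors assessed reads with fastp, aligned them with STAR 2.7.7 to mm10 and deposited raw counts per gene (GENCODE M23, second-strand reads), with no normalization. The 4 summary lines of unmapped, multimapping, ambiguous and unassigned reads were left out. Groups came from the sample labels. The study fitted the date of isolation, which the labels do not give, so it was not used here.

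CDDO-Me was compared with vehicle by edgeR 4.0.16 (R 4.3.3) with TMM factors, filterByExpr and the quasi-likelihood F-test in its older form, on the 10 libraries of a genotype. Adjusted p are Benjamini-Hochberg values over all tested genes. A gene was called at an adjusted p under 0.05 with a log2 fold change of 0.5 or more in either direction. Differences between responses were contrasts in 1 fit of all 30 libraries, called at an adjusted p under 0.05 alone. CPM used TMM factors over the 30 libraries, and log2 CPM a prior count of 2. SE is the log2 fold change over the root of F. With 30876096 to 37768767 counts per C151S library, 3 counts are 0.0776 to 0.102 CPM. P-values measure the spread between labelled samples, and animals are separate per the methods.

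Named genes were those called, the 10 next by p, the 3 lowest p per list, Keap1, Nfe2l2, 5 targets (Nqo1, Gstm1, Gpx2, Srxn1, Cbr3), Mt2, Zfp791 and Gm4316, tested genes within 100 kb of a called higher gene, and the 5 lowest p per direction in each difference. Members, lists and rules were chosen with earlier results of these data known. Mt2, Zfp791 and Gm4316 were added because the study marked them in its own C151S plot of these libraries. For genes named by a low p or so marked, separation of the groups was favoured in advance. The share of all tested genes that separate was not counted. Of 690 listed symbols 689 matched. Gene positions came from GENCODE M21, which placed 55154 of 55335 counted genes, and promoters from RefSeq (GRCm38.p6). The fits were tested on simulated data. Alternatives were DESeq2 1.42.0, other scaling, filters, a replicate block, a surrogate variable (sva 3.50.0), the Arntl set and leaving out each library.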

Additional observations from a re-analysis of the deposited data

Results flagged for a closer look

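A library was flagged where its gap to the nearest of the 5 in its group exceeded Dixon's 95% critical value. Of 229 groups of 5 tested for the 118 named genes, 17 held such a library, and chance flags about 1 in 20 groups. CDDO-Me replicate 1 accounted for 9 of the 17. It was high for Mt2 (1952 CPM), Mt1 (2197 CPM) and the zinc importer Slc39a14 (508 CPM), and it stood apart at 42.2 CPM for Nfe2l2 and 92.3 CPM for the lysosomal mannosidase Man2b1. It was also apart for Ube2c, a mitotic ubiquitin-conjugating enzyme (0.136 CPM), Ehhadh of peroxisomal fatty acid oxidation (101 CPM), and the P450 genes Cyp2c55 (3.89 CPM) and Cyp3a11 (1488 CPM). Among the other treated livers, replicate 2 was flagged for Dhps (7.92 CPM), replicate 4 for Ifit1 (5.58 CPM) and replicate 5 for the sterol desaturase Sc5d (243 CPM). Among vehicle livers, replicate 3 was flagged for Tnpo2 (48.0 CPM), replicate 4 for Neurl1b (0.639 CPM) and the organic anion transporter Slco1a1 (621 CPM), and replicate 5 for Srxn1 (43.2 CPM) and Man2b1 (108 CPM).

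Genes whose response to CDDO-Me differed between genotypes by the interaction test in edgeR were flagged as well. The wild-type minus C151S difference in log2 fold change was 4.84 for Cbr3, 5.10 for Gsta1, 3.09 for Nqo1, 2.43 for Gstm1, 2.29 for Srxn1, 1.77 for Gstm4, 1.72 for Gm34934 and 1.15 for Htatip2. It was -4.28 for Gm42031, -3.35 for Gm4316, -2.50 for Tagln3, -2.45 for Plcd3, -1.95 for Zfp791, -1.94 for Gm43860, -1.71 for Mpp4 and -1.55 for Prss53. The C151S minus Nrf2-knockout difference was 4.32 for Gm42031 and 3.33 for Plcd3.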

How the results depend on the processing

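All 13 called genes kept their sign in every alternative that tested them all, and the counts of calls moved more. CDDO-Me in C151S liver gave 14 higher and 20 lower in the fit of all 30 libraries, 23 and 77 by DESeq2, 1 and 6 with upper-quartile factors, 4 and 19 without a filter, 0 and 1 with at least 10 counts in every library (where 942 were higher at an unadjusted p under 0.05), 1 and 11 with 1 surrogate variable (10 of the 13 calls, without Plcd3), and 1 and 3 with the Arntl set as covariate. With at least 10 counts in every library only 4 of the 13 were tested, and Ccnb2 alone was called. Leaving out 1 library gave 0 to 6 higher and 0 to 21 lower. With CDDO-Me replicates 3, 4 or 5 or vehicle replicates 1, 2, 3 or 5 left out both counts were 0 in edgeR, with 542 to 1189 higher and 521 to 1118 lower at an unadjusted p under 0.05. Wild-type minus C151S gave 91 higher and 22 lower by DESeq2, and 43 to 74 and 5 to 23 on leaving out 1 library. C151S minus Nrf2-knockout gave 1 lower by DESeq2, 0 higher with at least 10 counts in every library, 1 lower with the Arntl covariate, and 1 to 3 higher on leaving out 1 library. The cause was not tested. Residuals of equal replicate numbers correlated at -0.01, 0.42, -0.45, -0.14 and 0.33, and 1 of 5 pairs matched its own number best. So few pairs cannot settle whether the numbers pair the mice. By Arntl, replicates 1 and 2 were in the high set and 4 and 5 in the low set in both groups, while replicate 3 was split. With the replicate block C151S gave 1 higher (Gm42031) and 1 lower (Fam198a, not among the 13), so that none of the 11 mitotic calls passed, wild-type minus C151S 8 lower and C151S minus Nrf2-knockout 1 higher. Leaving out CDDO-Me replicate 1 for the gene lists was chosen after seeing the data.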
